A study of Arabidopsis thaliana with 4 samples.

Results

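The ttg1 array was set against the wild-type array, which makes 2 of the 4 samples of the series. The samples were taken by their titles, and the comparison was the ttg1 value minus the wild-type value of each probe set on the log2 scale, after quantile normalization of all 4 arrays without the control probe sets. Of 22746 probe sets, 12601 had a highest value among the 4 arrays that reached the median of all values (6.26), and 6756 of 13355 genes named by 1 probe set or more passed that filter. Total RNA came from ttg1 seedlings aged 20 days, of which the labels say that green tissue was used and that Landsberg erecta (L.er) is the wild type they belong with. The gl1 seedlings (green tissue, no age given), the gl3 egl3 double mutant (20 days, L.er named, no statement on green tissue, written gl3egl1 in the design text and gl3egl3 in the sample title) and wild type (20 days, green tissue, no accession given) are the other arrays. All plants were raised at 22 °C under days of 16 h light and 8 h dark. The sources used here name no alleles of the mutated genes, nor whether an RNA sample pooled several seedlings. The files give 1 column of values per genotype, called an array here, and whether the wild-type column averages several arrays is not stated. No difference below therefore has a replicate check, so sizes are given without a test, and genotype, accession and array cannot be told apart.

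TTG1 is a WD40 protein that holds MYB and bHLH transcription factors together in 1 complex. With GL1 and GL3 or EGL3 that complex starts leaf hairs (trichomes), and with other MYB and bHLH partners it switches on the late steps of anthocyanin synthesis, seed coat tannins and mucilage. Mutants without TTG1 therefore lack trichomes and anthocyanin, whereas gl1 mutants lack trichomes and keep their pigment. The study's design text gives its question as which transcripts are enriched in trichomes. None of the probe sets named here belongs to TTG1, so the label could not be checked against its transcript.

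At a size rule of 1 on the log2 scale, which is 2-fold, 476 of 12601 probe sets were lower in ttg1 than in wild type (3.78%) and 225 were higher (1.79%). In the deposited values, which ran higher in ttg1 by a median of 0.30, the split was 298 lower and 804 higher. Among named genes 271 of 6756 were lower (4.01%) and 104 were higher (1.54%), and the larger differences lay mostly on the low side. In 11 of the 271 and 21 of the 104 both ttg1 and wild type lay below the filter, which another array reached. At a size of 2 (4-fold) there were 46 lower and 6 higher genes. The median difference over probe sets above the filter was 0.04, and their SD was 0.52. Small differences depended on the scaling: among the named genes under the size rule, 22 had the opposite sign in the deposited values and 26 when arrays were centred on their medians.

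**Figure D1:**
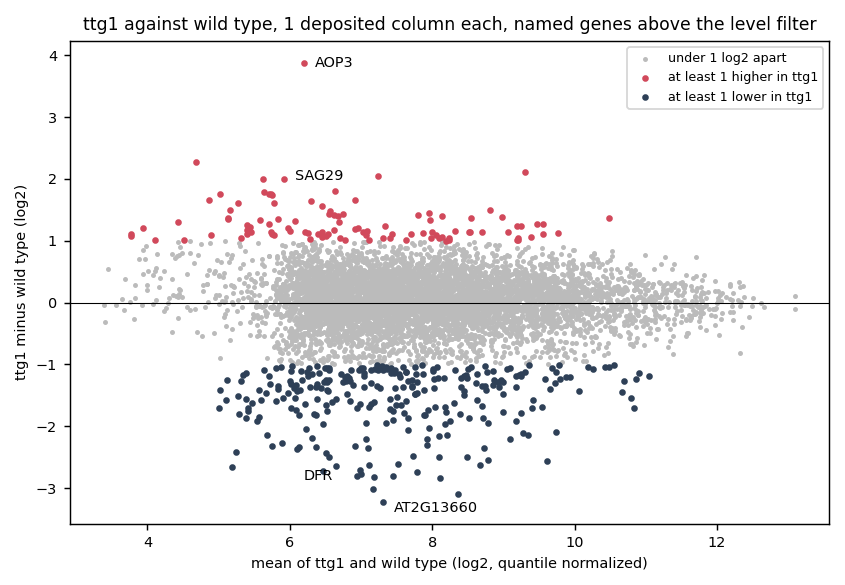
Difference between ttg1 and wild type (log2, vertical axis) against the mean of both arrays (log2, horizontal axis) for the 6756 named genes above the level filter, 1 point a gene. The 271 genes at least 1 lower in ttg1 and the 104 at least 1 higher are coloured, and AOP3 stands alone at 3.88.

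The libraries differed in control probe sets. Ubiquitin's 3′ probe set exceeded its 5′ probe set by 2.56 in ttg1 and 2.15 in wild type, actin's by 3.74 and 3.56, and GAPDH's by 1.14 and 1.46 (deposited log2, ttg1 first), and their part in the differences was not tested. Across all 22746 probe sets ttg1 correlated with wild type at r = 0.981, with gl1 at 0.984 and with gl3 egl3 at 0.969, which are correlations across probe sets and not across replicates. The green tissue gene RCA, for Rubisco activase, was high in both, at 12.23 in ttg1 and 12.19 in wild type. The root hair expansin genes lay below the filter, EXPA7 at 3.35 in both and EXPA18 at 4.27 in ttg1 and 5.34 in wild type. PYK10, also listed with the root genes, was at 11.18 in both ttg1 and wild type, so the listed root genes were not all low.

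Late anthocyanin genes had the lowest median of the 13 lists with at least 3 members above the filter. DFR, the dihydroflavonol reductase that commits flavonoids to anthocyanins, was at 5.54 in ttg1, 9.66 in gl1, 6.68 in gl3 egl3 and 8.35 in wild type. The ttg1 value was the lowest of the 4, 1.14 below gl3 egl3, and the difference from wild type was -2.81 (7.0-fold lower). Because the arrays hold bulk seedling RNA, fewer cells making a transcript and less transcript per cell cannot be told apart, here and below. UF3GT (UGT79B1), which adds a xylose to anthocyanins, was at 6.83 in ttg1, 8.15 in gl1, 6.71 in gl3 egl3 and 7.90 in wild type. Its difference of -1.07 was -0.78 in the deposited values, under the size rule. UGT78D2, the glucosyltransferase that acts on flavonols as well as on anthocyanidins, differed by -0.16 (7.98 in ttg1 and 8.14 in wild type), and by 0.11 in the deposited values. AT5MAT, an anthocyanin malonyltransferase gene, lay below the filter at 5.84 in ttg1 and 5.71 in wild type. Of 13 late anthocyanin genes listed, 4 are named and 3 passed the filter, with 2 lower, 0 higher and a median of -1.07, beside a median of 0.04 over all probe sets above the filter and 4.01% of all named genes lower. Against the same wild-type array, the median of these 3 genes in gl1 was 0.62 above wild type, and in gl3 egl3 it was -1.19.

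Earlier flavonoid genes overlapped the late ones in the size of their differences, with the late gene UGT78D2 at -0.16. CHIL, a chalcone isomerase-like protein that aids flavonoid synthesis, was at 7.27 in ttg1, 8.25 in gl1, 7.27 in gl3 egl3 and 7.92 in wild type, a difference of -0.64. UGT78D1, a flavonol rhamnosyltransferase gene, was at 9.87 in ttg1 and 10.04 in wild type. These are 2 of 21 listed genes, and neither passed the size rule, beside 4.01% of all named genes lower and 1.54% higher. UGT78D3, also on the list, lay below the filter at 4.59 in ttg1 and 5.21 in wild type. Of 21 genes of tannin and mucilage synthesis, which act in the seed coat, UGT80B1 (a sterol glucosyltransferase gene) was the member above the filter, at 7.64 in ttg1 and 7.03 in wild type. BAN, the anthocyanidin reductase gene of seed coat tannins, lay near the bottom of the scale at 3.32 in ttg1 and 3.28 in wild type.

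Of the trichome genes above the filter in the 3 lists used for them none passed the size rule between ttg1 and wild type, and CML42, outside those lists, did. Few were measured above the filter: 1 of 24 listed genes of the complex and its competitors, 1 of 20 fate targets and 8 of 27 growth genes. Over all named genes 4.01% were lower and 1.54% higher, shares at which so few genes may hold none. TRY, a small MYB that competes with GL1 for the complex, was at 5.56 in ttg1, 4.84 in gl1, 8.24 in gl3 egl3 and 5.44 in wild type. It reached the filter in gl3 egl3 alone, so no named gene of the complex list reached it in ttg1 or wild type. SIM, a cyclin-dependent kinase inhibitor that lets trichome cells enlarge their genome without dividing, was at 6.54 in ttg1, 6.33 in gl1, 6.98 in gl3 egl3 and 6.89 in wild type (difference -0.35, and 0.02 in the deposited values). The bHLH gene ATMYC1 and the zinc-finger gene GIS lay below the filter and differed by 0.41 and 0.10. Among 27 listed genes of trichome growth and shape 8 passed the filter, with differences from -0.21 to 0.27, a median of 0.02 (-0.09 when arrays were centred on their medians) and none past the size rule. They included the branching gene AN (0.02), the actin regulators SPK1 (-0.02, and 0.36 in the deposited values), BRK1 (0.01) and PIR121 (0.27), the actin-nucleating subunit gene CRK (-0.21, and 0.16 in the deposited values), and AT5G06700, annotated as TRICHOME BIREFRINGENCE, at 8.46 in ttg1 and 8.45 in wild type. CML42, a calmodulin-like calcium sensor known from trichome branching, was at 5.74 in ttg1, 5.70 in gl1, 6.44 in gl3 egl3 and 6.79 in wild type. Its difference of -1.05 was -0.72 in the deposited values.

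The 15 named genes with the largest low differences were 6.19-fold to 9.30-fold below wild type. AT2G13660 was at 5.70 in ttg1, 8.56 in gl1, 5.88 in gl3 egl3 and 8.92 in wild type, a difference of -3.22. AT2G25510 was at 6.81, 10.22, 6.06 and 9.91 in the same order, and AT1G66100 at 5.67, 9.62, 5.78 and 8.68. In all 3 genes gl1 lay near or above wild type and gl3 egl3 near or below ttg1. CLE44, which encodes the precursor of a phloem peptide that keeps vascular stem cells from becoming xylem, was at 5.64 in ttg1, 8.01 in gl1, 5.97 in gl3 egl3 and 8.35 in wild type. LUL1, a ubiquitin ligase gene, was at 5.32 in ttg1, 8.11 in gl1, 5.34 in gl3 egl3 and 7.97 in wild type. Besides DFR, the others were AT5G49440 (-2.84), AT4G19500 (-2.83), AT4G02540 (-2.80), AT3G43740 (-2.77), AT1G67470 (-2.74), AT1G12400 (-2.72), AT5G14840 (-2.66), AT3G16750 (-2.63) and AT2G33220 (-2.63), which the annotation gives no symbol.

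The 10 genes with the largest high differences were led by AOP3, a dioxygenase that turns methylsulfinyl glucosinolates into hydroxyalkyl ones and is known to be expressed in some accessions only. It was at 8.15 in ttg1, 4.69 in gl1, 7.75 in gl3 egl3 and 4.27 in wild type, a difference of 3.88 (14.7-fold). The arrays fell into a high pair, ttg1 and gl3 egl3, and a low pair, gl1 and wild type, and the labels name L.er for the high pair. SAG29 (SWEET15), a sucrose transporter gene that is switched on in ageing leaves, was at 6.92 in ttg1, 5.93 in gl1, 6.07 in gl3 egl3 and 4.92 in wild type (4.0-fold higher). APL4, a large subunit of the starch enzyme ADP-glucose pyrophosphorylase, was at 6.52 in ttg1, 5.76 in gl1, 3.91 in gl3 egl3 and 4.74 in wild type (3.45-fold higher). AT3G02480 was at 8.26 in ttg1, 7.55 in gl1, 4.91 in gl3 egl3 and 6.22 in wild type. For APL4 and AT3G02480 the gl3 egl3 array lay lowest and ttg1 highest. The remaining 6 were AT2G29170 (2.27), AT5G48490 (2.1), AT2G32160 (2.0), AT3G51750 (1.80), AT4G33550 (1.76) and AT5G25100 (1.75). AT2G29170 reached the filter in gl3 egl3 alone, with 5.82 in ttg1 and 3.54 in wild type. AT4G33550 reached it in ttg1 alone, where it was highest, so counts that hold it are a description.

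**Figure D2:**
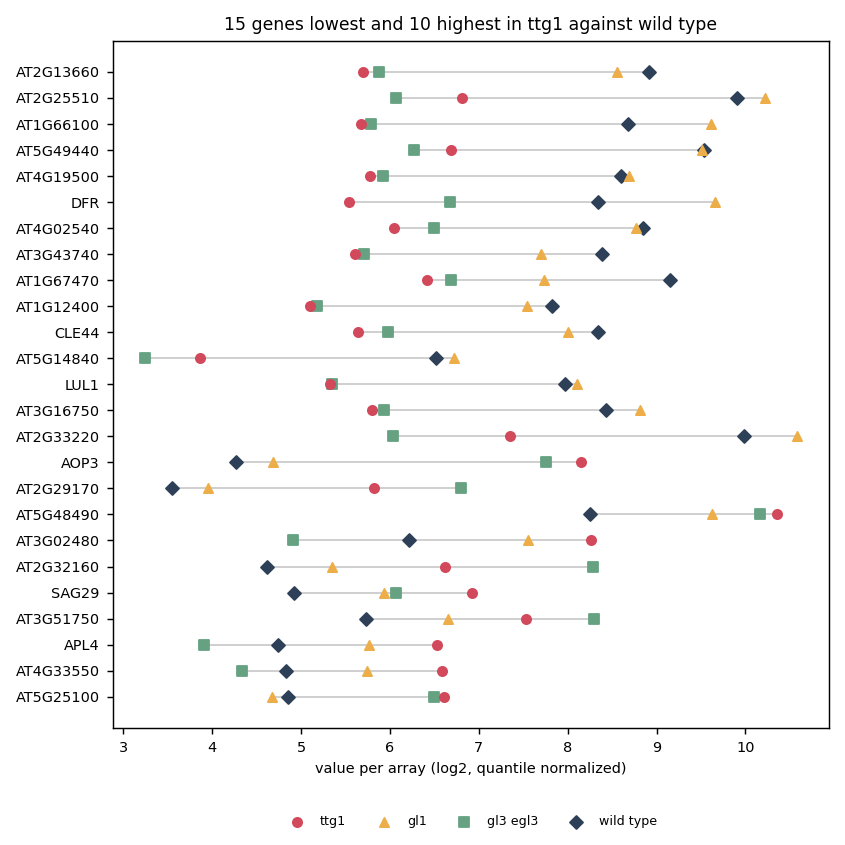
Value on each array (log2, quantile normalized, horizontal axis) of the 15 genes with the largest low and the 10 with the largest high difference between ttg1 and wild type, 1 symbol an array. For AOP3 ttg1 is at 8.15 and wild type at 4.27, and for AT2G13660 ttg1 is at 5.70 and wild type at 8.92.

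The 3 mutants were compared with the same wild-type array, so a deviation of that array enters each of their differences. Setting ttg1 against gl1 takes the wild-type value out of the difference. The 476 lower and 225 higher probe sets were chosen with the wild-type value, however, and the ttg1 value is in both differences. Part of any overlap therefore follows from the choice. Of the 476 lower probe sets 254 (53.4%) were at least 1 lower than in gl1, with a median difference of -1.09 over the 476. Of the 225 higher ones 58 (25.8%) were at least 1 higher than in gl1, with a median of 0.59. Over all 12601 probe sets above the filter 350 were lower and 148 higher in ttg1 than in gl1. Against gl3 egl3 the 476 and the 225 had medians of -0.12 and -0.13, and 36 of the 476 and 25 of the 225 passed the rule. Over all 12601 the counts against gl3 egl3 were 535 lower and 470 higher.

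Some of the lower genes were at the same level in gl1 as in wild type. AT5G49440 was at 6.68 in ttg1, 9.51 in gl1, 6.27 in gl3 egl3 and 9.53 in wild type, and AT3G04210 at 7.59, 9.47, 6.83 and 9.46. AT5G50130 differed by -1.45 in ttg1 and -0.01 in gl1, AT4G37250 by -1.15 and 0.01, and AT4G22720 by -1.28 and 0.01. On the high side the auxin gene GH3.3, described below, AT5G55570, AT5G43180, AT4G11000 and AT3G14280 differed from wild type by 1.09 to 1.61 in ttg1 and by -0.05 to 0.04 in gl1. AT5G43180 reached the filter in gl3 egl3 alone, and AT3G14280 in ttg1 alone, where it was highest.

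Other genes at least 1 below wild type in ttg1 were also far below it in gl1. STZ (ZAT10), a zinc-finger repressor gene that responds within minutes to salt, cold and wounding, was at 8.27 in ttg1, 7.24 in gl1, 8.22 in gl3 egl3 and 9.74 in wild type. AT3G10930 was at 5.76 in ttg1, 5.63 in gl1, 5.84 in gl3 egl3 and 8.08 in wild type. AR781 was at 6.48, 6.73, 7.62 and 8.97 in the same order, AT4G29780 at 6.73, 6.08, 6.58 and 8.39, and AT2G22880 at 6.38, 5.77, 6.5 and 7.99. These 5 genes were chosen for values in ttg1 and gl1 below wild type, so only the gl3 egl3 value was free. It lay below wild type for each of the 5. Of the higher genes, AT5G35970 differed from wild type by 1.39 in ttg1 and 1.78 in gl1, AT5G48490 by 2.1 and 1.37, AT3G53980 by 1.64 and 1.34, AT3G02480 by 2.04 and 1.34, and the glucan water dikinase gene PWD at AT4G24450 by 1.66 and 1.34.

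The ttg1 array stood at least 1 below every other array for 10 named genes (0.148% of 6756) and at least 1 above every other for 3 (0.0444%), within 18 probe sets low in that way (0.143% of 12601) and 7 high (0.0556%). AT2G22100 was at 6.63 in ttg1, 8.32 in gl1, 8.38 in gl3 egl3 and 8.69 in wild type, the widest gap at -1.69. PCN, a WD40 protein that embryos need to lay out their auxin-dependent body plan, was at 5.45 in ttg1, 6.94 in gl1, 6.78 in gl3 egl3 and 7.27 in wild type. PDF1.2, a defensin gene switched on by jasmonate with ethylene, was at 6.0 in ttg1, 7.62 in gl1, 9.84 in gl3 egl3 and 7.05 in wild type. Its difference from wild type was -1.05, and -0.71 in the deposited values. DFR belonged to this group too, and AT2G29310, AT3G16670, AT4G00895, AT1G67865, AT1G62850 and AT3G23550 completed it, with gaps from -1.18 to -1.03.

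GH3.3, which joins auxin to amino acids, was the named gene with the widest gap on the high side, at 6.30 in ttg1, 5.21 in gl1, 5.07 in gl3 egl3 and 5.17 in wild type. The others were AT2G37870, at 7.24 in ttg1 and 5.68 in wild type, and AT4G11000, at 6.59 and 4.98. GH3.3, AT2G37870 and AT4G11000 each reached the filter in ttg1 alone, where they were highest, so counts that hold them are a description. Of 57 listed auxin genes 5 passed the filter, with 0 lower, 1 higher (GH3.3) and a median of -0.11, which was 0.30 in the deposited values. Over all named genes 4.01% were lower and 1.54% higher. WES1 (GH3.5), of the same enzyme family, differed by -0.56, GH3.17 by -0.11, the auxin repressor gene IAA18 by -0.86 and the auxin synthesis gene YUC2 by 0.70 (1.16 in the deposited values, past the size rule), so members of the list lay on either side of 0. WES1 reached the filter in wild type alone, and GH3.17 and YUC2 in gl3 egl3 alone.

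**Figure D3:**
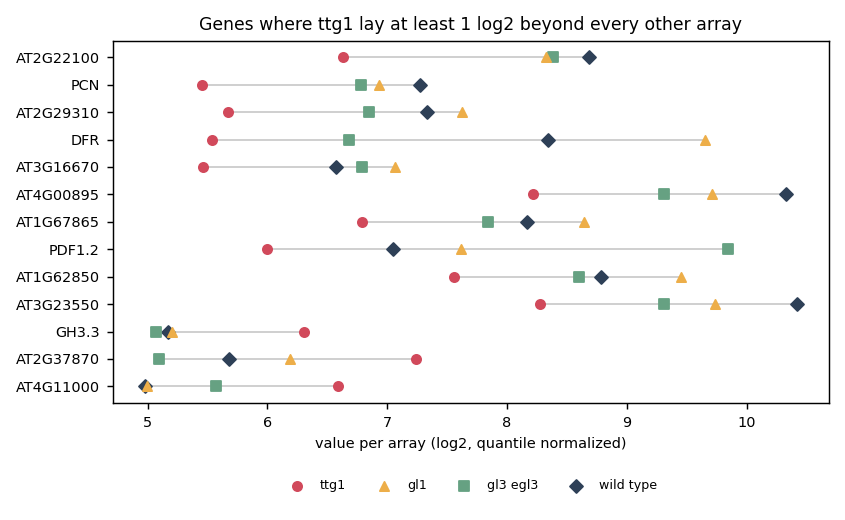
Value on each array (log2, quantile normalized, horizontal axis) of the 10 named genes in which ttg1 lay at least 1 below every other array and the 3 in which it lay at least 1 above. GH3.3 is at 6.30 in ttg1 and between 5.07 and 5.21 in the other arrays.

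Starch and sugar genes had higher values in ttg1 in 3 of the 9 members above the filter (50 were listed), with 0 lower and a median of 0.70, beside 1.54% of all named genes higher and 4.01% lower. All 9 named members of the list passed the filter, and SAG29 and APL4, given above, reached it in ttg1 alone, where they were highest, so their counts are a description. SWEET13, a sucrose exporter gene of the phloem, was at 5.80 in ttg1, 5.58 in gl1, 6.64 in gl3 egl3 and 4.45 in wild type, so wild type was the lowest array and the gl3 egl3 value alone reached the filter. APL3, another large subunit gene of ADP-glucose pyrophosphorylase, was at 7.58 in ttg1, 7.46 in gl1, 5.84 in gl3 egl3 and 6.80 in wild type, a difference of 0.78 that was 1.15 in the deposited values. The starch branching enzyme gene SBE2.2 differed by 0.70 and the disproportionating enzyme gene DPE1 by 0.65, while PWD at AT5G26570, a starch-phosphorylating enzyme gene, differed by 0.19, SWEET11 by 0.15 and the sucrose phosphate synthase gene ATSPS4F by -0.16. Outside the list, PWD at AT4G24450 was at 7.74 in ttg1, 7.42 in gl1, 7.57 in gl3 egl3 and 6.08 in wild type. SWEET2, a vacuolar glucose transporter gene, went the other way, at 6.77 in ttg1, 6.70 in gl1, 7.31 in gl3 egl3 and 7.86 in wild type. The median of the 9 genes was 0.74 in gl1 and 0.04 in gl3 egl3 against the shared wild-type array.

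GI, a clock gene that peaks in the evening and promotes flowering, was at 6.58 in ttg1, 6.47 in gl1, 5.30 in gl3 egl3 and 5.38 in wild type. ATC, a gene of the floral repressor family of TFL1, had the same order of arrays, at 6.5 in ttg1, 6.37 in gl1, 5.07 in gl3 egl3 and 5.16 in wild type. Both were over 2-fold higher in ttg1, and the labels do not give the hours of sampling. Of 35 listed genes of flowering 3 passed the filter, with 0 past the size rule, beside 4.01% of all named genes lower and 1.54% higher. The median of the 3 flowering genes was -0.94. They were AGL24, a MADS-box activator of flowering, at 6.12 in ttg1 and 7.11 in wild type, and the floral repressor genes SMZ, at 6.38 and 7.32, and SNZ, at 5.43 and 5.68. SNZ reached the filter in gl3 egl3 alone, so both its ttg1 and wild-type values lay below the filter. With arrays centred on their medians AGL24 and SMZ passed the size rule, at -1.05 and -1.01.

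Genes of abscisic acid, cold and drought had a median of 0.48 over the 4 members above the filter, of 50 listed, with 1 higher and 0 lower. That count stands beside 4.01% of all named genes lower and 1.54% higher. LTI30, a dehydrin gene, was at 8.59 in ttg1, 8.30 in gl1, 6.93 in gl3 egl3 and 7.50 in wild type, a difference of 1.09 that was 0.97 when arrays were centred on their medians. COR15A, a chloroplast cold-protection gene, was at 10.78 in ttg1 and 10.12 in wild type, COR47 at 11.54 and 11.24, and COR15B at 11.58 and 11.61. HIS1-3, a linker histone gene induced by drought, was at 6.99 in ttg1, 6.06 in gl1, 6.82 in gl3 egl3 and 5.92 in wild type. COR27, a gene controlled by cold and the clock, was lower, at 9.67 in ttg1, 10.06 in gl1, 8.32 in gl3 egl3 and 10.71 in wild type.

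Jasmonate genes lay on both sides. JMT, which makes the volatile methyl jasmonate, was at 5.08 in ttg1, 4.45 in gl1, 7.0 in gl3 egl3 and 3.79 in wild type, and passed the filter through the gl3 egl3 value. JRG21, a jasmonate-regulated oxygenase gene, was at 7.38 in ttg1, 5.56 in gl1, 7.65 in gl3 egl3 and 5.98 in wild type. CHAT, which makes the leaf volatile hexenyl acetate, was at 6.02, 4.56, 6.29 and 4.77 in the same order. For JRG21 and CHAT the ttg1 and gl3 egl3 arrays were high and the gl1 and wild-type arrays low. Of 35 listed jasmonate genes 5 passed the filter, with 1 lower (PDF1.2), 1 higher (JMT) and a median of -0.53. The shares over all named genes were 4.01% lower and 1.54% higher. PDF1.2b differed by -0.59, the synthesis gene OPCL1 by -0.53 and the bHLH factor gene MYC3 by 0.17.

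**Figure D4:**
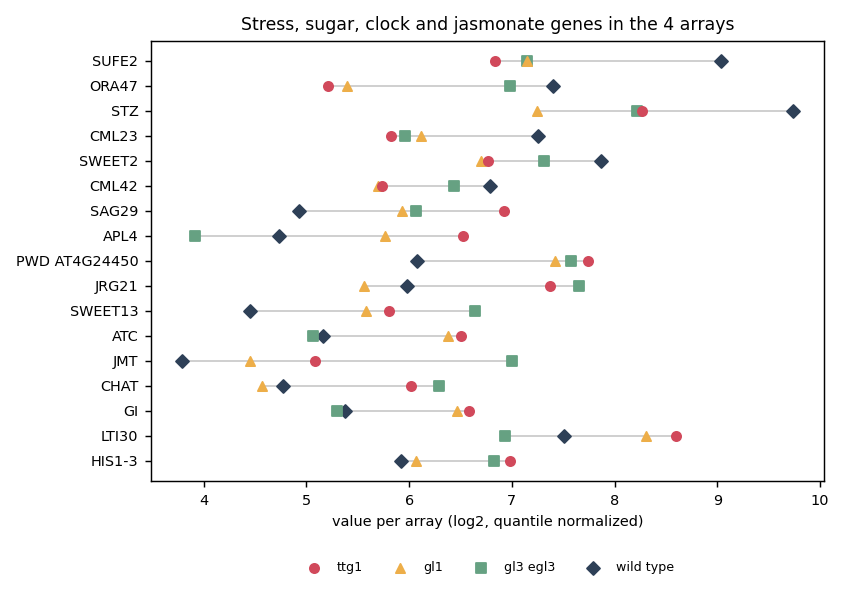
Value on each array (log2, quantile normalized, horizontal axis) of 17 chosen genes that passed the size rule in ttg1. They are genes of touch response, sugar transport and starch, clock, dehydration and jasmonate, with SUFE2 and ATC, which belong to none of these classes. The jasmonate gene PDF1.2 (-1.05) and the cold gene COR27 (-1.04), both lower in ttg1, are not shown. ORA47 is at 5.21 in ttg1 and 7.40 in wild type, and SAG29 at 6.92 in ttg1 and 4.92 in wild type.

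Rapid touch, wound and calcium genes were lower in ttg1 in 3 of the 11 members above the filter (72 were listed), with 0 higher and a median of -0.66, beside 4.01% of all named genes lower and 1.54% higher. ORA47, an AP2 factor that turns on jasmonate synthesis after wounding, was at 5.21 in ttg1, 5.40 in gl1, 6.98 in gl3 egl3 and 7.40 in wild type. CML23, a calmodulin-like gene, was at 5.82 in ttg1, 6.11 in gl1, 5.96 in gl3 egl3 and 7.25 in wild type. The differences of WRKY53 (-0.82), WRKY22 (-0.59), the ubiquitin ligase genes PUB23 (-0.66) and PUB22 (-0.56), CML37 (-0.82) and CML38 (-0.38) were under the size rule, and CML41 (0.50) and EXO (0.24) lay above 0. CML23 and CML37 reached the filter in wild type alone, where they were highest, so counts that hold them are a description. The same 11 genes had a median of -1.29 in gl1 and -1.03 in gl3 egl3 against the shared wild-type array. SUFE2, an activator of iron-sulfur cluster assembly, is listed with the phosphate and sulfur starvation genes instead. It was at 6.83 in ttg1, 7.15 in gl1, 7.14 in gl3 egl3 and 9.03 in wild type, 4.59-fold lower.

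Glucosinolate genes other than AOP3 stayed within 1 of wild type. Of 59 listed, 8 passed the filter, with 1 higher, 0 lower and a median of 0.04 (-0.28 when arrays were centred on their medians). The shares over all named genes were 4.01% lower and 1.54% higher. AOP1, the neighbour of AOP3 in the same enzyme family, was at 6.59 in ttg1, 5.92 in gl1, 5.80 in gl3 egl3 and 5.66 in wild type, a difference of 0.93 that was 1.39 in the deposited values. BCAT4, which starts the synthesis of methionine-derived glucosinolates, differed by 0.20, the core enzyme genes UGT74B1 and GSTU20 by -0.12 and 0.05, the transporter genes GTR1 and GTR2 by -0.33 and 0.03, and the myrosinase-like gene PYK10 by 0.00. NAI2, needed to form the endoplasmic reticulum bodies that store PYK10, was at 7.34 in ttg1, 8.40 in gl1, 6.82 in gl3 egl3 and 8.72 in wild type. Of 26 listed genes known to vary between the Columbia and Landsberg erecta accessions, AOP3 and LIP1 passed the filter, and LIP1 differed by 0.15.

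Photosynthesis genes of the nucleus had 0 of 10 members past the size rule and a median of 0.20, which was -0.19 when arrays were centred on their medians. LHCB4.2, a light-harvesting protein gene, had the largest difference, at 10.68 in ttg1, 11.11 in gl1, 11.30 in gl3 egl3 and 9.87 in wild type. Of 68 chloroplast-encoded genes 1 was higher and 0 lower, with a median of 0.01. The counts of both sets stand beside 4.01% of all named genes lower and 1.54% higher. The higher gene was accD, a subunit of the plastid acetyl-CoA carboxylase, at 9.81 in ttg1, 9.34 in gl1, 10.55 in gl3 egl3 and 8.57 in wild type. HEMA2, a glutamyl-tRNA reductase gene of tetrapyrrole synthesis, was at 6.47 in ttg1, 6.47 in gl1, 5.99 in gl3 egl3 and 7.60 in wild type.

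The heat and unfolded protein list had 5 members above the filter and a median of -0.55, with the chaperone gene Hsp70-2 at -0.80 and the stress factor gene BZIP60 at -0.76. Genes of gibberellin, brassinosteroid, cytokinin and ethylene had 5 members and a median of -0.37, the largest difference being that of the gibberellin receptor gene GID1B (-0.79). GID1B reached the filter in wild type alone, where it was highest, so its difference and the counts that hold it are a description. Phenylpropanoid and lignin genes had 3 members, from -0.14 to -0.12, with a median of -0.13 that was 0.13 in the deposited values. None of these members passed the size rule, beside 4.01% of all named genes lower and 1.54% higher. Lists with 1 or 2 members above the filter gave a guard cell factor gene, FMA (FAMA), at -0.88, the cell cycle and endoreduplication genes PRL and BIN4 at 0.03 and 0.40, the wax ester gene WSD1 at 0.13, the senescence and immunity gene SAG101 at 0.47 and the sulfite reductase gene SIR at -0.11. WSD1 reached the filter in gl3 egl3 alone. The list of SIR, phosphate and sulfur starvation genes, also held SUFE2 above the filter, at -2.20.

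**Figure D5:**
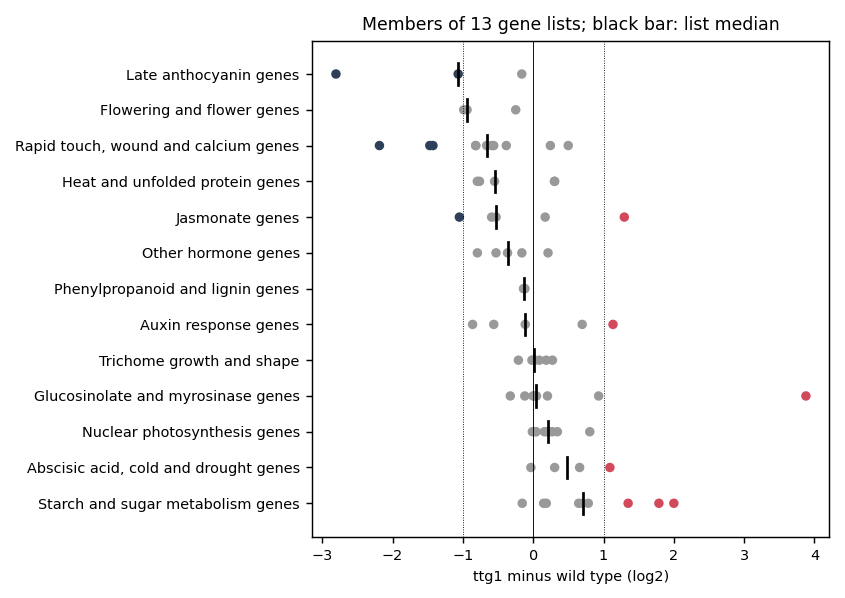
Difference between ttg1 and wild type (log2, horizontal axis) of each member above the filter in the 13 lists with at least 3 such members, with a black bar at the list's median and dotted lines at the size rule. Medians run from -1.07 for late anthocyanin genes to 0.70 for starch and sugar genes.

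Of 999 genes that carry a symbol and passed the filter, 35 were lower (3.50%) and 26 were higher (2.60%); those not yet described are given by role. In 1 of the 35 (3xHMG-box1) and 7 of the 26 (TET4, SBT3.12, ATYKT62, CHAT, JMT, SWEET13 and GSTU23) both ttg1 and wild type lay below the filter, which 3xHMG-box1 reached in gl1 and the 7 in gl3 egl3. In immunity, CSA1, an intracellular immune receptor gene, was at 4.76 in ttg1, 7.12 in gl1, 5.17 in gl3 egl3 and 7.02 in wild type, and ECS1, a cell wall protein gene, at 8.69, 10.96, 7.94 and 10.78 in the same order. Both were low in ttg1 and gl3 egl3 and high in gl1 and wild type. Protein turnover had UBC18 (-1.26) and UBC37 (-1.15), of the ubiquitin-conjugating enzymes, SAMBA (-1.06), a regulator of the anaphase-promoting complex, PIP (-1.28), an iminopeptidase, and PDF1B (-1.24), a peptide deformylase of plastids. SBT3.12 (1.11) and ATSBT5.2 (1.13), of the subtilisin-like proteases, were higher.

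In chromatin and growth, HDA15, a histone deacetylase gene, differed by -1.07, 3xHMG-box1, a protein of mitotic chromosomes, by -1.5, and MOB1-like, a co-activator of growth-controlling kinases, by -1.41. UGT85A4, of the glycosyltransferase family, was at 6.38 in ttg1, 8.08 in gl1, 6.98 in gl3 egl3 and 8.32 in wild type. HVA22C differed by -1.90, ZW9 by -2.20, ATRER1C1, of retrieval to the endoplasmic reticulum, by -1.54, SIS by -1.36, MSRB5, a methionine sulfoxide reductase gene, by -1.21, 2A6 by -1.17, and the mitochondrial gene nad4L by -1.2. TBL45 and TBL38, of the family that acetylates wall polymers, differed by -1.1 and 1.3, so these members went opposite ways. AT3G58730, annotated as VHA-D of the vacuolar proton pump, was at 7.24 in ttg1, 9.51 in gl1, 6.64 in gl3 egl3 and 9.73 in wild type.

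On the high side, GSTU23, a glutathione transferase gene, was at 5.91 in ttg1, 4.21 in gl1, 6.81 in gl3 egl3 and 4.41 in wild type. AT4G33150, annotated as the lysine-degrading enzyme LKR/SDH, was at 8.51, 7.24, 7.72 and 7.09 in the same order, with ttg1 the highest array. VTC4, of vitamin C synthesis, differed by 1.23, ATYKT62, a vesicle fusion protein gene, by 1.2, ACS, an acetyl-CoA synthetase gene, by 1.16, BGLU46, a glucosidase gene of lignin precursors, by 1.1, ATSRL1 by 1.05, SEC, which attaches sugars to other proteins, by 1.05, CYP71B35, a cytochrome P450 gene, by 1.04, and the tetraspanin gene TET4 by 1.01. With arrays centred on their medians VTC4 (0.98), ACS (0.996), ATSRL1 (0.80) and accD (0.99) came under the size rule.

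In the deposited values 13 of the 35 lower genes with a symbol and 0 of the 26 higher ones came under the size rule. The 13 were UBC18, 2A6, COR27, nad4L, TBL45, UBC37, HEMA2, SWEET2, UF3GT, HDA15, SAMBA, CML42 and PDF1.2, at -0.99 to -0.71. Of the genes named above without a symbol, AT4G37250 (-0.82), AT3G16670 (-0.78) and AT1G62850 (-0.997) did so too.

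Among 24 gene families by symbol with at least 6 members above the filter, 15 had none past the size rule, beside 3.50% of genes with a symbol lower and 2.60% higher. The calmodulin-like CML family had 2 of 6 members lower (CML23 and CML42), 0 higher and a median of -0.60, with CML42 under the rule in the deposited values and CML30 at 0.10. CML23 and CML37 reached the filter in wild type alone, so these counts are a description. Symbols that start with PDF also gave 2 of 6 lower, but they mix defensins with peptide deformylases: PDF1.2 and PDF1B were the 2, while PDF1A differed by 0.07, PDF1.4 by -0.44 and PDF2.1 by -0.75. Among 25 glycosyltransferase (UGT) genes 1 was lower (UGT85A4), and their median was -0.13. Ribosomal protein genes of the RPS and RPL symbols had medians of 0.11 and 0.12 over 8 and 7 members, none past the rule. All of them are chloroplast-encoded and already counted among the 68 chloroplast-encoded genes above.

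For 3 genes with several probe sets above the filter, 1 probe set or more passed the rule, and in none of the 3 did all of them. AT1G23440 differed by -2.64 in 1 probe set and -0.99 in the other, AT2G37480 by -1.05 and -0.36, and AT3G48570 by 1.15 and -0.08. The files do not give probe sequences, and whether a difference lies in transcript level or in hybridization to a probe was not tested.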

How the data were processed

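The deposited values are log2 probe set values of 4 Arabidopsis ATH1-type arrays hybridised with biotin-labelled cDNA amplified from 25 ng of total RNA per the labels; per the submitters' processing notes they were made with RMA, whose version and settings the sources used here do not give. Every wild-type value (100%) fell on a step of 0.005 (tolerance 1e-06), against 0.0352% in ttg1, so that column was rounded or averaged; whether it holds 1 array or a mean is not given. The 64 control probe sets were left out and the 4 columns were quantile normalized with limma 3.58.1 in R 4.3.3, a step tested on simulated data. Differences were computed in Python 3.11.15 with pandas 2.3.3. The size rule was 1 on the log2 scale, with no test, as each genotype has 1 deposited column; this number limits the precision.

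Probe sets took their names from GEO's platform annotation, with symbols brought up to date by Entrez number in RefSeq, assembly TAIR10.1: 13513 probe sets name 1 gene, 503 several and 8730 are unnamed here; 13436 were matched. Where a gene had several probe sets, the one with the highest mean over the arrays stood for it. Named are the 15 lowest and 10 highest genes that pass the size rule also as deposited, up to 10 per direction beyond every other array, up to 5 per direction each with the smallest and with the largest same-sign gl1 difference, members of 25 lists (967 entries, 128 named, 95 above the filter), and families with at least 25% of members past the rule. All genes with a symbol past the rule, AT3G58730, AT4G33150, and those with several probe sets were added after values were seen. Of the list entries, those whose symbol belongs to another gene here were dropped. The comparison, lists and rules were chosen with earlier results of these data known. Alternatives were the deposited values, cyclic loess, median centring, quantile normalization of ttg1 and wild type alone, other level filters and another array in place of wild type.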

Additional observations from a re-analysis of the deposited data

Results flagged for a closer look

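Opposite 2-fold differences from wild type in 2 mutants were found for 3 named genes, and with 1 deposited column a genotype these differences were not tested. DFR was -2.81 in ttg1 and 1.31 in gl1, a distance of -4.12 (ttg1 minus gl1, log2). PDF1.2 was -1.05 in ttg1 and 2.79 in gl3 egl3, a distance of -3.84 (ttg1 minus gl3 egl3). AT3G02480 was 2.04 in ttg1 and -1.30 in gl3 egl3, a distance of 3.34 (ttg1 minus gl3 egl3).

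The 5S rRNA control probe set, which is outside the main measurement, was 1.97 above its array's median in ttg1, 1.57 in gl1, 3.19 in gl3 egl3 and 0.38 in wild type, so ttg1 exceeded wild type by 1.60. The 25S rRNA control probe set went the other way, at 1.04 in ttg1 and 1.59 in wild type.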

How the results depend on the processing

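The count of lower probe sets (476) was 298 in the deposited values and 294 where both arrays had to reach the filter. That of higher ones (225) was 804 in the deposited values, 106 where both arrays had to reach the filter, 148 with gl1 in place of wild type and 470 with gl3 egl3 in its place. Under the other alternatives lower counts ran from 350 to 678 and higher counts from 201 to 293. The deposited values keep an offset between the columns and the stricter filter tests fewer probe sets; for the other changes the cause was not tested. No called difference of a named gene changed sign under deposited values, cyclic loess, median centring or quantile normalization of ttg1 and wild type alone. Median centring brought LTI30, VTC4, ACS, ATSRL1 and accD under the size rule, at 0.80 to 0.996. With gl1 in place of wild type, differences changed sign for STZ (1.02), AT3G10930 (0.13), AT4G29780 (0.65), AT2G22880 (0.61), AT5G35970 (-0.39), CML42 (0.0388), HEMA2 (0.0021), SWEET2 (0.0693) and nad4L (0.34). With gl3 egl3 in its place they changed sign for AT2G25510 (0.75), AT5G49440 (0.41), AT5G14840 (0.61), AT2G33220 (1.32), AT2G29170 (-0.98), AT2G32160 (-1.66), AT3G51750 (-0.77), AT5G50130 (0.27), AT4G22720 (0.15), AT3G04210 (0.76), STZ (0.0443), AT4G29780 (0.14), AT5G55570 (-0.59), AT5G43180 (-0.36), AT5G35970 (-1.12), UF3GT (0.13), EXPA18 (0.38), SWEET13 (-0.83), JMT (-1.92), PDF1B (0.0233), HEMA2 (0.47), ECS1 (0.75), SAMBA (0.36), ZW9 (0.63), HVA22C (0.0549), GSTU23 (-0.91), PIP (0.67), ATRER1C1 (0.37), VTC4 (-0.44), CHAT (-0.27), SEC (-0.0316), NAI2 (0.52), HDA15 (0.10), UBC37 (1.45), CYP71B35 (-0.20), JRG21 (-0.27), MSRB5 (0.58), 3xHMG-box1 (0.52), SBT3.12 (-0.50), COR27 (1.35), UBC18 (0.16), ATYKT62 (-2.13), TET4 (-1.53) and accD (-0.74). The late anthocyanin median was -0.78 in the deposited values and -0.62 without the filter. List medians changed sign for jasmonate genes without the filter (0.17) and, as given with their results, under scalings for trichome growth, photosynthesis, auxin, glucosinolate and phenylpropanoid genes; the flowering median was -1.01 under cyclic loess and median centring. No paired analysis was possible because each genotype has 1 deposited column.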
